A study of Mus musculus with 4 samples.

Results

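Scd2, Fads2 and Elovl5 encode enzymes that desaturate or elongate fatty acids. These 3 genes were taken by name from the 2701 genes in the authors' deposited table, and they were chosen with their difference between the groups already known. Their levels and fold changes are therefore given as a description, with no test.

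The table gives sequencing counts for RNA of mouse pyloric stomach (strain C57BL/6) in 4 libraries, 2 per group. Both groups carried floxed alleles of the Hippo kinase genes Lats1 and Lats2 (Lats1fl/fl;Lats2fl/fl) and were sampled 8 weeks after tamoxifen. WT mice had no Cre. Lats1/2iΔLgr5 mice also carried Lgr5-CreER, a tamoxifen-dependent Cre driven by the stem cell gene Lgr5, which is active at the gland base. Recombination was thus possible only in Lgr5-expressing cells and their progeny, and neither sex nor exact age of the mice was given. The labels call the cell type pyloric epithelium, but RNA came from whole cryosections 10 µm thick, which also hold other cells. In such bulk RNA, fewer cells of a type and less RNA per cell cannot be told apart. The labels do not say whether the libraries of a group came from different mice, so p-values measure the spread between these libraries, which may be technical.

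Fatty acids made or taken up by a cell are activated to acyl-CoAs and then modified in the endoplasmic reticulum. Stearoyl-CoA desaturases such as SCD2 place the first double bond in saturated acyl-CoAs, giving the monounsaturated chains (oleate, palmitoleate) of membrane phospholipids and triglycerides. FADS2 carries out the first desaturation of the essential fatty acids linoleate and alpha-linolenate, ELOVL5 lengthens the product, and FADS1 desaturates it again on the way to arachidonate and eicosapentaenoate. Transcription of these genes is promoted by the sterol regulatory element-binding proteins (SREBPs).

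All 3 genes stood higher in both Lats1/2iΔLgr5 libraries than in either WT library, by 4.41-fold for Scd2, 5.98-fold for Fads2 and 2.41-fold for Elovl5. They belong to the 1158 listed genes that were higher, which are 8.81% of the 13141 genes inferred to have been tested (20.6% in either direction). That share is the background of the table, and nothing is read from it here, since the genes were chosen on this contrast.

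Scd2 (ENSMUSG00000025203, plus strand of chromosome 19, 44293674 to 44306864, GRCm38) lies beside its paralogs Scd1, Scd3 and Scd4. Its coding sequence was 89.6% identical to that of Scd1, 88.1% to that of Scd3 and 82.7% to that of Scd4. The longest exact run common to the Scd2 and Scd1 coding sequences is shown because a read inside it cannot be assigned to either gene by its own letters. Reads came in pairs, so a mate outside the run could still place it. It is 147 bases long, longer than a 75-base read, and joins exons 4 and 5 of 6 in both genes.

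Scd2, coding bases 532 to 678, exonic parts of chr19:44299702-44301245 (+): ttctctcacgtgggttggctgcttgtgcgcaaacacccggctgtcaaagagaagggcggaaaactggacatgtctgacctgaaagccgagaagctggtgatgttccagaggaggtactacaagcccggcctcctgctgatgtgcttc

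The same letters are coding bases 523 to 669 of Scd1, in chr19:44400341-44401805 on the minus strand. Over the whole Scd2 transcript (5455 bases), 1.80% of the 75-base windows also occurred in a transcript of another gene, namely Scd1, Scd3 or Scd4. The share was 3.24% for Scd1. For the transcripts of Fads2, Elovl5, Fads1, Fads3 and Elovl7, 0 windows of that length occurred in another gene.

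As normalized counts (reads divided by the library's size factor), Scd2 measured 4474 in WT 1 and 3988 in WT 2, against 18776 in Lats1/2iΔLgr5 1 and 18516 in Lats1/2iΔLgr5 2. The groups did not overlap, as in 99.9% of the listed genes, and the replicates of each group lay close together. The mean was 4231 ± 343 in WT and 18646 ± 184 in Lats1/2iΔLgr5 (SD, n = 2). On the log2 scale the difference was 2.14 ± 0.14 (SE). In raw reads these levels rest on 3545, 3616, 20737 and 23690 counts. Among the 2701 listed genes Scd2 stood at rank 688 by level in WT and at rank 61 in Lats1/2iΔLgr5.

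**Figure D1:**
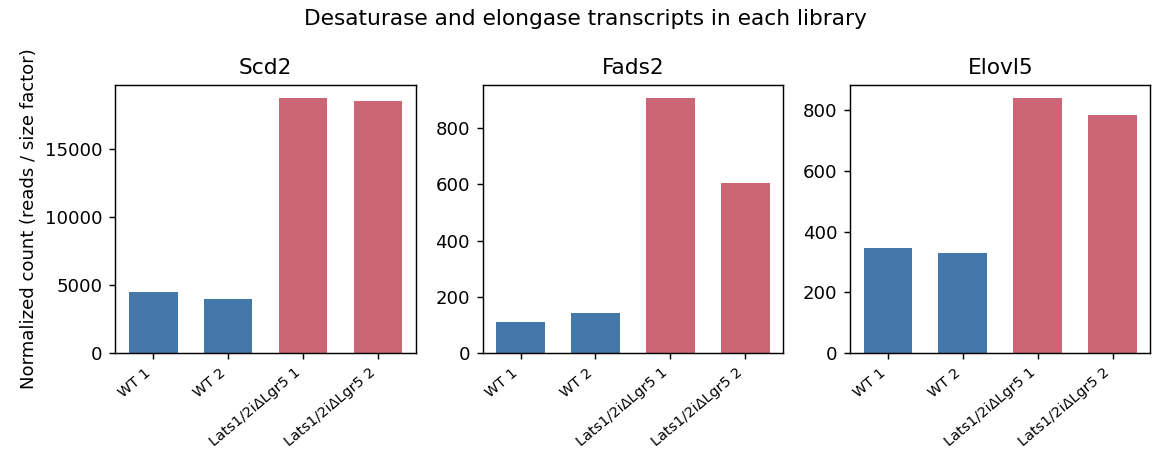
Normalized count (reads divided by the size factor, linear axis from 0) of Scd2, Fads2 and Elovl5, with 1 bar per library, WT in blue and Lats1/2iΔLgr5 in red. Both red bars stand above both blue bars in each panel. The Fads2 bars of the Lats1/2iΔLgr5 libraries differ most from each other, at 909.0 and 604.9.

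Scd1, the stearoyl-CoA desaturase best known from liver and fat, was listed as well. Its normalized counts were 424.0 and 322.1 in WT, and 862.0 and 1444 in Lats1/2iΔLgr5, with the second of these the highest. Its log2 difference was 1.62 ± 0.31 (SE) in edgeR's fit. The authors' deposited table gives a rise of 1.45 for Scd1 (DESeq2 adjusted p = 4.55e-05). Scd3 and Scd4 have no values here.

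Within each library, reads of Scd2 outnumbered those of Scd1 by 10.6 and 12.4 times in WT and by 21.8 and 12.8 times in Lats1/2iΔLgr5. Such a ratio does not depend on how libraries are scaled. Lats1/2iΔLgr5 1 stood apart from the other 3 libraries, while Lats1/2iΔLgr5 2 was close to WT 2. Per kb of exon, the Scd2 level was 774 ± 62.8 in WT and 3412 ± 33.7 in Lats1/2iΔLgr5, and the Scd1 level was 76.3 ± 14.7 and 235.6 ± 84.1 (SD, n = 2). Scd2 was thus the more abundant of the 2 listed stearoyl-CoA desaturase transcripts in all 4 libraries.

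Fads2 (ENSMUSG00000024665, minus strand of chromosome 19, 10062765 to 10101746, GRCm38) lies between Fads3 and Fads1, with 2655 bases to Fads3 and 81142 bases to Fads1. It was the least abundant of the 3 genes in WT, with 88 and 129 reads. Its normalized counts were 111.1 and 142.3 in WT 1 and 2, and 909.0 and 604.9 in Lats1/2iΔLgr5 1 and 2. The groups did not overlap, as in 99.9% of the listed genes, although Lats1/2iΔLgr5 1 stood well above Lats1/2iΔLgr5 2. The mean was 126.7 ± 22.1 in WT and 757 ± 215 in Lats1/2iΔLgr5 (SD, n = 2), and the log2 difference was 2.56 ± 0.30 (SE). This difference was 2.24 without Lats1/2iΔLgr5 replicate 1 and 2.82 without Lats1/2iΔLgr5 replicate 2.

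Fads1, which follows Fads2 in the pathway, stood at 286.5 and 367.3 normalized counts in WT and at 848.4 and 490.8 in Lats1/2iΔLgr5. As for Fads2, Lats1/2iΔLgr5 1 was the highest library. Its log2 difference was 1.03 ± 0.32 (SE) in edgeR's fit, and the authors' deposited table gives a rise of 0.91 for Fads1 (DESeq2 adjusted p = 0.0254). The edgeR value rests in part on 1 library: leaving out Lats1/2iΔLgr5 replicate 1 gave 0.58 (edgeR adjusted p = 0.140).

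Fads3, whose enzyme acts on sphingoid bases, went the other way. Its normalized counts were 5001 and 5240 in WT, and 3215 and 3398 in Lats1/2iΔLgr5, a log2 difference of -0.63 ± 0.12 (SE) in edgeR's fit. The authors' deposited table gives -0.62 for Fads3 (DESeq2 adjusted p = 3.22e-04). With libraries scaled by the total of the listed genes its direction changed, to a log2 fold change of 0.07. The listed genes are those the authors called different, so the authors' size factors were kept as the main scale.

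Ratios within libraries set these neighbours apart from each other without any scaling. Fads2 had 0.388 and 0.387 reads per Fads1 read in WT 1 and 2, and 1.07 and 1.23 in Lats1/2iΔLgr5 1 and 2. This ratio was nearly the same in both WT libraries, but it rests on few reads there, 88 over 227 and 129 over 333. That near equality of 2 values is therefore no measure of the replicate spread. The groups did not overlap, with means of 0.388 in WT and 1.15 ± 0.114 in Lats1/2iΔLgr5 (SD, n = 2). Per kb of exon, Fads2 was the lower of the 2 in WT, at 0.566 of the Fads1 level, and the higher of the 2 in Lats1/2iΔLgr5, at 1.68 ± 0.166 times that level. Against Fads3, Fads2 had 0.0222 and 0.0272 reads per read in WT and 0.283 and 0.178 in Lats1/2iΔLgr5. Fads3 remained the most abundant of the 3 fatty acid desaturase transcripts per kb of exon in every library, from 847.9 to 1382.

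**Figure D2:**
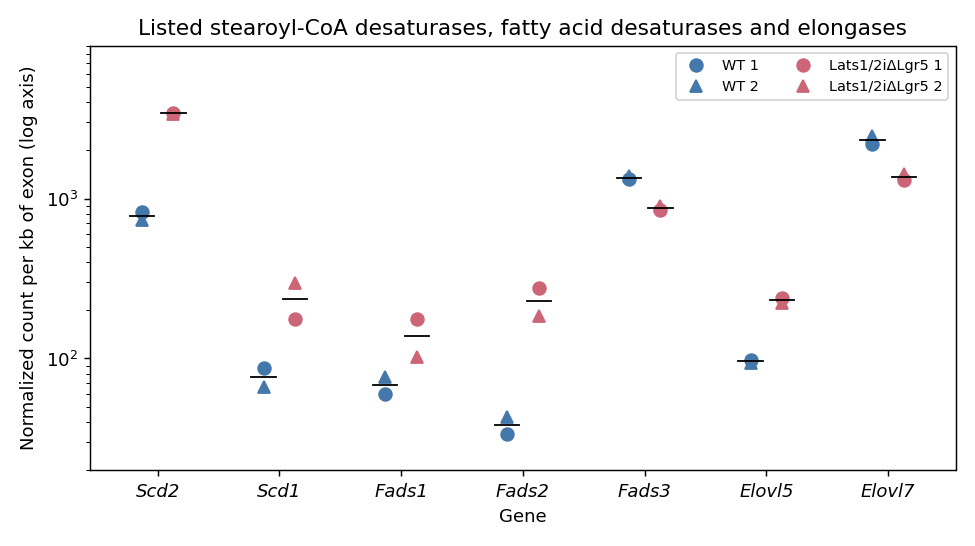
Normalized count per kb of exon (log axis) of the listed stearoyl-CoA desaturases, fatty acid desaturases and elongases, with 1 symbol per library (circles replicate 1, triangles replicate 2, blue WT, red Lats1/2iΔLgr5) and a black line at each group's mean. Scd2, Scd1, Fads1, Fads2 and Elovl5 are higher in red, and Fads3 and Elovl7 are lower on the scale of the authors' size factors.

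Elovl5 (ENSMUSG00000032349, plus strand of chromosome 9, 77917364 to 77984519, GRCm38) had the smallest step of the 3. Its normalized counts were 344.5 and 330.9 in WT 1 and 2, against 841.1 and 785.5 in Lats1/2iΔLgr5 1 and 2, from 273, 300, 929 and 1005 reads. The groups did not overlap, as in 99.9% of the listed genes, and the replicates lay close together. The mean was 337.7 ± 9.64 in WT and 813.3 ± 39.4 in Lats1/2iΔLgr5 (SD, n = 2), and the log2 difference was 1.26 ± 0.18 (SE).

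Elovl7, an elongase of saturated very long acyl chains, was the other listed member of its family, and Elovl1, Elovl2, Elovl3, Elovl4 and Elovl6 have no values here. Elovl7 stood at 8750 and 9855 normalized counts in WT and at 5257 and 5685 in Lats1/2iΔLgr5. Its log2 difference was -0.77 ± 0.13 (SE) in edgeR's fit, and the authors' deposited table gives -0.75 for Elovl7 (DESeq2 adjusted p = 4.33e-05). Under total-count scaling the edgeR value was -0.07 and was not called (edgeR adjusted p = 0.731). Elovl5 had 0.0394 and 0.0336 reads per Elovl7 read in WT and 0.160 and 0.138 in Lats1/2iΔLgr5. Elovl7 thus stayed far above Elovl5 per kb of exon, at 2318 ± 195 against 95.9 ± 2.74 in WT and 1363 ± 75.5 against 230.9 ± 11.2 in Lats1/2iΔLgr5 (SD, n = 2).

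**Figure D3:**
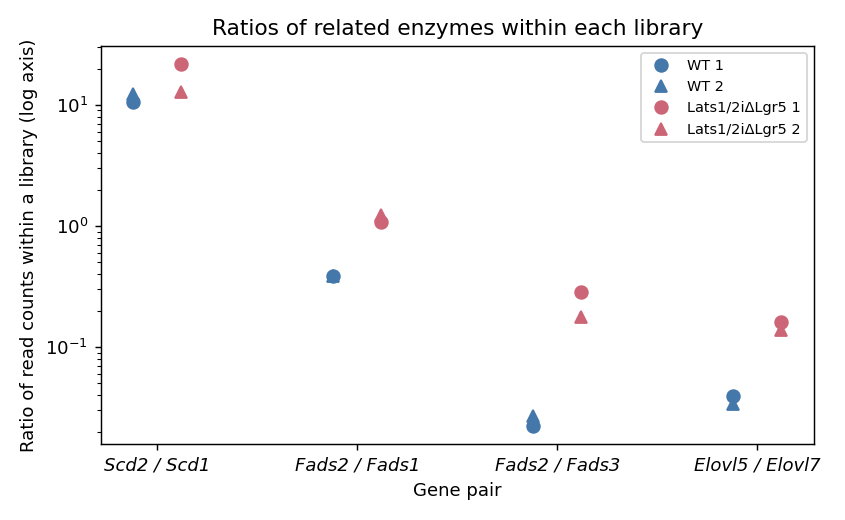
Ratio of read counts of 2 related genes within each library (log axis), which is free of scaling between libraries. Symbols are as in the plot of levels per kb, and the WT symbols of Fads2 over Fads1 coincide at 0.388 and 0.387. Fads2 over Fads1, Fads2 over Fads3 and Elovl5 over Elovl7 are higher in both Lats1/2iΔLgr5 libraries, while Scd2 over Scd1 is 12.8 in Lats1/2iΔLgr5 2 and 12.4 in WT 2.

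The 3 genes did not keep constant proportions. Scd2 had 13 and 12.1 reads per Elovl5 read in WT and 22.3 and 23.6 in Lats1/2iΔLgr5. Scd2 per Fads2 read was 40.3 and 28.0 in WT and 20.7 and 30.6 in Lats1/2iΔLgr5, so these groups overlapped. Fads2 per Elovl5 read was 0.322 and 0.430 in WT and 1.08 and 0.770 in Lats1/2iΔLgr5. Elovl5 therefore took a smaller part of the reads of the trio in both Lats1/2iΔLgr5 libraries than in either WT library. Per kb of exon, Fads2 at 229.7 ± 65.3 and Elovl5 at 230.9 ± 11.2 reached levels within each other's spread in Lats1/2iΔLgr5 (SD, n = 2), whereas in WT they were at 38.4 ± 6.70 and 95.9 ± 2.74.

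Promoter sequence from RefSeq (GRCm38.p6) was matched for 2 of the 3 genes, Fads2 and Elovl5. The 249 bases before the Elovl5 start are shown because this gene shifted with little spread between replicates. Capitals mark the letters found by a search of both strands for TCACNCCAC (sterol response element of SREBP), CCAAT (NF-Y), GGGCGG (Sp1), GGAATG (TEAD, the DNA-binding partner of YAP) and CACGTG (E-box).

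Elovl5, chr9:77917115-77917363 (+): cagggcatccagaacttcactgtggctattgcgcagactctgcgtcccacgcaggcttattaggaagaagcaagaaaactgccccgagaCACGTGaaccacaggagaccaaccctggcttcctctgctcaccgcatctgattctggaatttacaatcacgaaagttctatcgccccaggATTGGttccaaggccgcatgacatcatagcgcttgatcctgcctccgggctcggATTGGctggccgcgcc

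Counting back from the last base shown as -1, the E-box letters begin at -160, and CCAAT is read on the minus strand (ATTGG) from -70 and from -16. No capitals overlap. Among 32851 RefSeq promoter windows of the same length, 33.8% held CCAAT and 6.00% held CACGTG. The Fads2 window (chr19:10101505-10101753, minus strand) held 1 GGGCGG, a motif present in 32.6% of windows, and 242 of its 249 bases lie inside the longer GENCODE gene model. TCACNCCAC and GGAATG, found in 1.04% and 12.6% of all windows, were not among the letters of either window. A match is a description of letters, not a binding site.

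Neighbouring genes did not all move with these enzymes. Within 250 kb, 2 of 12 protein-coding neighbours of Scd2 were listed, against 20.6% of all genes tested: Scd1 (higher) and Chuk (lower). Of 11 neighbours of Fads2, 3 were listed, Fads3, Fads1 and Incenp, which encodes a chromosomal passenger protein and was 2.52-fold higher. Of 6 neighbours of Elovl5, 3 were listed, and all of these fell on the authors' scale: the glutathione transferase genes Gsta4 and Gsta1 by 0.74 and 1.27 on the log2 scale, and Fbxo9 by 0.52. None of these falls was called by edgeR under total-count scaling, where Chuk and Fbxo9 changed sign (log2 fold changes of 0.13 and 0.18) and Gsta4 and Gsta1 were at -0.05 and -0.59. Gsta1 stayed called lower with TMM or DESeq2 size factors taken from the listed genes, and Chuk, Fbxo9 and Gsta4 did not.

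The remaining desaturation and elongation genes went both ways. Of 26 genes in these lists other than the 3, 5 rose (19.2%) and 6 fell (23.1%) in the authors' deposited table, and edgeR called 0 of these 6 lower under total-count scaling, where Fads3, Degs2, Cyb5a and Cyb5r4 changed sign. All 5 rises stayed called there, but that scaling shifted every gene upward, so it could hardly remove a rise. Of the 6 falls, Elovl7 alone stayed called with TMM or DESeq2 size factors taken from the listed genes. The shares of 19.2% and 23.1% compare with 8.81% and 11.7% of all genes tested, and the other 15 have no values here. The median log2 fold change of the listed ones was -0.49, beside -0.50 over all 2701 listed genes. Degs1, which desaturates dihydroceramide to ceramide, rose from 985.2 ± 209 to 1946 ± 10.9 normalized counts, and its relative Degs2 fell from 6577 ± 836 to 4410 ± 45.0 (SD, n = 2). Degs2 changed sign under total-count scaling (0.12).

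Hacd4, a dehydratase of the elongation cycle, rose from 175.9 ± 11.7 to 439.3 ± 55.3 normalized counts, close to the step of Elovl5, and Hacd3 fell from 5664 ± 1170 to 2875 ± 962 (SD, n = 2). The Hacd3 fall was called by edgeR under none of the 3 scalings from the listed genes, with a log2 fold change of -0.31 under total counts in place of -0.98. Cyb5a, a cytochrome that passes electrons to stearoyl-CoA desaturases, fell 1.41-fold, and of its reductase family Cyb5r4 fell 1.44-fold while Cyb5r1 rose 1.61-fold. Cyb5a and Cyb5r4 changed sign under total-count scaling (log2 fold changes of 0.20 and 0.16).

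Upstream of these steps, de novo fatty acid synthesis had 6 of 8 genes listed, 3 higher and 3 lower (37.5% each, against 8.81% and 11.7% of all genes tested), with a median log2 fold change of -0.01. Acaca, the cytosolic acetyl-CoA carboxylase that makes malonyl-CoA for synthesis and elongation, rose from 766.7 ± 140 to 1547 ± 199 normalized counts (SD, n = 2). Acacb, the mitochondrial-surface carboxylase that restrains fatty acid oxidation, fell from 3232 ± 386 to 1025 ± 264. Acaca had 0.226 and 0.247 reads per Acacb read in WT and 1.16 and 2.01 in Lats1/2iΔLgr5. Acly and Fasn, which make acetyl-CoA and palmitate, rose 1.58-fold and 1.55-fold. The NADPH-producing malic enzyme gene Me1 fell 2.52-fold and the citrate carrier gene Slc25a1 1.57-fold; Slc25a1 changed sign under total-count scaling (0.05), while Acacb and Me1 stayed called lower at -0.97 and -0.65.

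**Figure D4:**
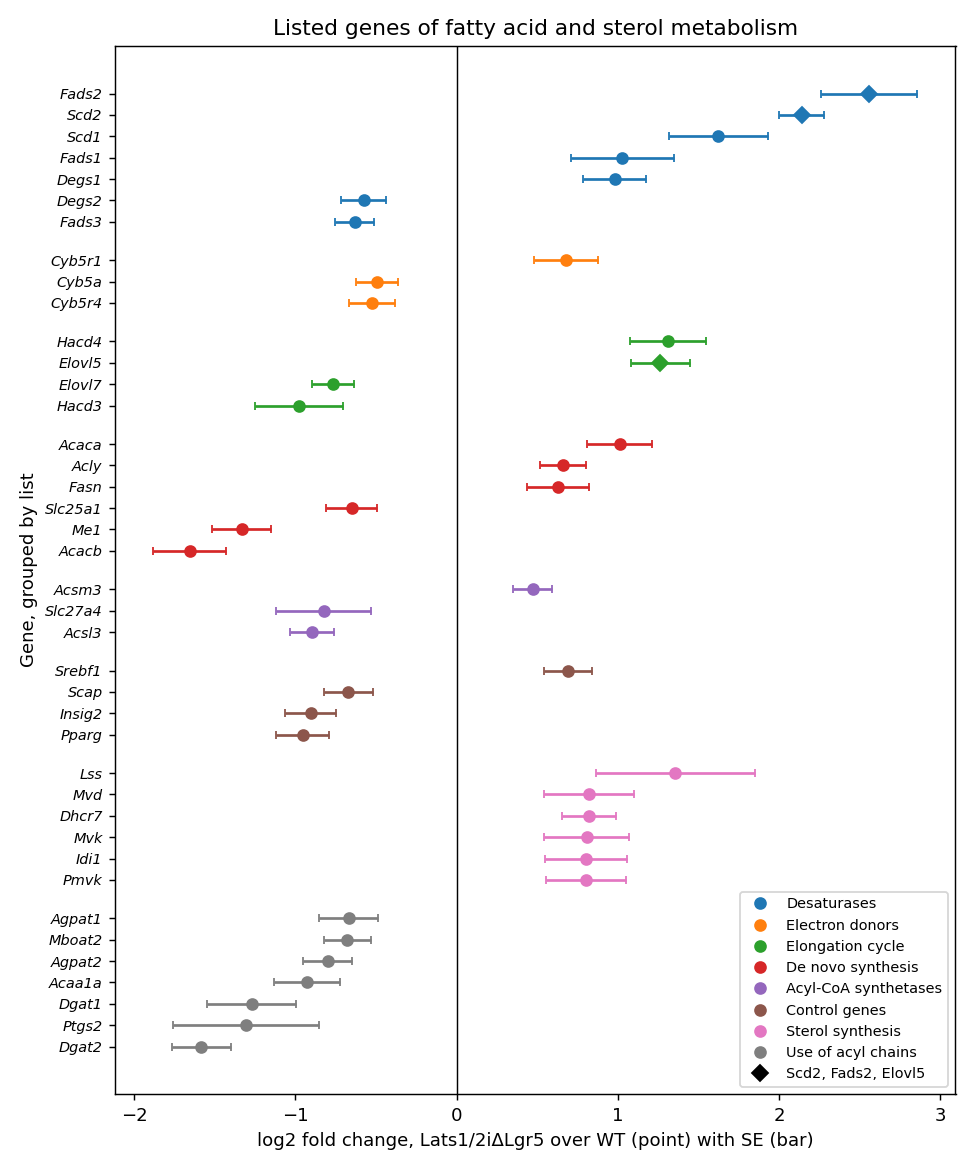
Log2 fold change of Lats1/2iΔLgr5 over WT (point) with its SE (bar) for the listed genes reported from the 8 lists, grouped and coloured by list; diamonds are Scd2, Fads2 and Elovl5. All 6 listed sterol synthesis genes lie right of 0, all 7 listed genes of acyl chain use lie left of it on the authors' scale (Agpat1 and Mboat2 cross it under total-count scaling), and the desaturation and elongation lists lie on both sides.

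Among control genes, Srebf1, which encodes the SREBP that drives fatty acid synthesis genes, rose from 1808 ± 193 to 2917 ± 167 normalized counts (SD, n = 2; authors' deposited table, DESeq2 adjusted p = 1.52e-03). Scap and Insig2, which carry and retain SREBPs in the endoplasmic reticulum, and Pparg fell 1.59-fold, 1.87-fold and 1.94-fold. Total-count scaling put Scap at 0.03, Insig2 at -0.21 and Pparg at -0.25, and edgeR called none of these 3 falls there. Insig2 and Pparg, but not Scap, stayed called lower with TMM or DESeq2 size factors taken from the listed genes. The list had 1 of 14 genes higher and 3 lower (7.14% and 21.4%, against 8.81% and 11.7% of all genes tested), and Srebf2, Insig1 and Mlxipl have no values here.

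Of 19 sterol synthesis and LDL-receptor pathway genes, which share SREBP control, 6 were listed and all 6 rose (31.6%, against 8.81% of all genes tested). Their median log2 fold change was 0.81. Dhcr7, the last enzyme of cholesterol synthesis in one of its branches, rose 1.77-fold. The other 5 depended on Lats1/2iΔLgr5 2, which was their highest library. Without Lats1/2iΔLgr5 replicate 2 the log2 fold changes of Mvk, Pmvk, Mvd, Idi1 and Lss were 0.46, 0.52, 0.52, 0.51 and 0.59 in place of 0.81, 0.80, 0.82, 0.80 and 1.36.

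Of 19 genes that use acyl chains, 7 were listed and all 7 fell on the authors' scale (36.8%, against 11.7% of all genes tested). Under total-count scaling edgeR called 1 of the 7 lower, Dgat2, at -0.88 on the log2 scale. With TMM or DESeq2 size factors taken from the listed genes it called 4 of them lower, Agpat2, Dgat1, Dgat2 and Acaa1a. Dgat2 and Dgat1, which complete triglyceride synthesis, fell by 1.58 and 1.27 on the log2 scale. Acaa1a, a thiolase of peroxisomal beta-oxidation, fell 1.90-fold. The acyltransferase genes Agpat2, Agpat1 and Mboat2 fell 1.74-fold, 1.59-fold and 1.60-fold, and the last 2 changed sign under total-count scaling (0.02 each). There Dgat1 was at -0.58, Acaa1a at -0.24, Agpat2 at -0.10 and Ptgs2 at -0.58 on the log2 scale. Ptgs2, which converts arachidonate to prostaglandin, stood at -1.30 on the log2 scale, or -0.61 when WT replicate 2 was left out.

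Of 10 acyl-CoA synthetase genes, 1 was listed as higher and 2 as lower (10% and 20%, against 8.81% and 11.7% of all genes tested). Acsl3 fell 1.86-fold, Acsm3 rose 1.39-fold and Slc27a4 stood at -0.82 on the log2 scale, or -0.32 when WT replicate 2 was left out. Under total-count scaling neither Acsl3 (-0.20) nor Slc27a4 (-0.12) was called by edgeR. Acsl3, but not Slc27a4, stayed called lower with TMM or DESeq2 size factors taken from the listed genes. Over all 8 lists, 37 of 96 genes other than the 3 were listed, 16 higher and 21 lower (16.7% and 21.9%, against 8.81% and 11.7% of all genes tested). edgeR's quasi-likelihood test gave the same counts, 16 and 21, in a table of which it called 42.9% higher and 57.1% lower. Total-count scaling shifted every gene upward, by a median log2 value of 0.69, so it could hardly remove a higher call. Under it edgeR kept all 16 higher calls and 3 of the 21 lower ones, Acacb, Me1 and Dgat2. Without Lats1/2iΔLgr5 replicate 2 it called 0 and 0 of the pathway genes. That fit called 5 of all listed genes.

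The genes whose profile over the 4 libraries came nearest to each enzyme were found by Euclidean distance between log2(normalized count + 1) values centred on their mean, over 4 libraries of 2 groups. All genes compared were listed for a difference between these groups. Nearest to Scd2 were Dtl (distance 0.183), Ccn2 (0.253), Pola1 (0.289), Bcam (0.292) and Ctps (0.334). Ccn2 is a standard YAP target, Dtl and Pola1 act in DNA replication, Bcam encodes a laminin receptor and Ctps makes CTP. Nearest to Fads2 were Serpina3n (0.398), Sftpd (0.455), Uhrf1 (0.567), Slfn9 (0.571) and Ajuba (0.580). All 5 share with Fads2 a Lats1/2iΔLgr5 1 level above that of Lats1/2iΔLgr5 2, an order that the distance itself selects for. Examples are Serpina3n at 1158 and 662.0 normalized counts, Slfn9 at 1122 and 674.5, and Ajuba at 403.8 and 373.6. Nearest to Elovl5 were Chst4 (0.0584), Tipin (0.0848), Atad5 (0.0961), Nrm (0.101) and Cd14 (0.108), of which Tipin and Atad5 act at replication forks. Fads2 was 0.681 from Scd2 and 1.36 from Elovl5, farther than any of these.

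Marker levels moved between the groups as well. All 6 cycling-cell markers were listed and higher (against 8.81% of all genes tested), and their summed level was 5353 to 8397 normalized counts in WT and 16150 to 18150 in Lats1/2iΔLgr5. Pcna had the smallest log2 difference, 0.60, or 0.40 without WT replicate 1. Per read of the proliferation marker Mki67, Scd2 had 2.23 and 1.21 reads in WT and 3.32 and 2.67 in Lats1/2iΔLgr5, and Fads2 had 0.0555 and 0.0430 against 0.161 and 0.0872. Elovl5 had 0.172 and 0.100 against 0.149 and 0.113, which overlap. These ratios hold for Mki67 only, which rose 2.37-fold. Top2a, Mcm2, Mcm7 and Ccnb1 rose 3.25-fold, 3.50-fold, 3.34-fold and 2.95-fold, and Pcna 1.52-fold, so ratios to them would differ. The part of cycling cells in these differences was not tested. Of 12 gastric epithelial markers, 6 were listed and fell on the authors' scale (50%, against 11.7% of all genes tested), Gkn1, Gkn2, Tff1, Muc5ac, Krt8 and Cdh1. edgeR called 0 of these 6 under total-count scaling, with log2 fold changes of -0.39, -0.42, -0.22 and -0.19 for the first 4 and a change of sign for the last 2. The reads of these markers are part of that total. Gkn2 alone had 1773404 of 14315314 reads in WT 1 and 1309848 of 13413629 in Lats1/2iΔLgr5 1. A fall of such abundant genes lowers the total they are scaled by, so this scaling is no independent check on it. With TMM or DESeq2 size factors taken from the listed genes, edgeR kept 3 of the 6 calls, Gkn1, Gkn2 and Tff1. Muc5ac, at -0.91 with all libraries, was at -0.53 without Lats1/2iΔLgr5 replicate 1 and -1.42 without Lats1/2iΔLgr5 replicate 2. The 6 listed gastric markers had a summed level of 4625685 to 4953342 in WT and 2130714 to 2544250 in Lats1/2iΔLgr5. Most of that sum is Gkn1 and Gkn2, at 1758279 and 2237927 in WT 1. Krt8 and Cdh1 fell less, 1.52-fold and 1.43-fold. The gland markers Muc6, Tff2, Pgc and Gast have no values here.

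Markers of lipid-rich and other cells that could carry these transcripts were also looked up. The shares of each list compare with 8.81% of all genes tested that were higher and 11.7% that were lower. A marker that is not listed has no known level here. Of 12 adipocyte markers, Cidec and Pparg were listed, both lower (16.7%), with a summed level of 9736 to 12955 in WT and 5240 to 5411 in Lats1/2iΔLgr5. Cidec alone stayed called under total-count scaling, and both did with TMM or DESeq2 size factors taken from the listed genes. Of 7 Schwann cell and glial markers, Cnp alone was listed (14.3%, higher), at 416.9 to 564.1 in WT and 875.4 to 1143 in Lats1/2iΔLgr5. The defining Sox10 has no values here. Of 8 sebaceous and squamous markers, Krt4 alone was listed (12.5%, higher), at 31.5 to 54.0 in WT and 123.5 to 146.7 in Lats1/2iΔLgr5. The 3 listed of 7 small intestinal markers went both ways (14.3% higher and 28.6% lower). Fabp2 and Vil1 stood at -2.25 and -1.25 on the log2 scale (-0.83 for Vil1 without WT replicate 2, and -0.55, not called by edgeR, under total-count scaling), while Lyz1 rose from 53.3 ± 30.7 to 197.5 ± 14.0 normalized counts (SD, n = 2). Their sum, 24209 to 42516 in WT and 10053 to 13764 in Lats1/2iΔLgr5, is nearly all Fabp2 and Vil1. Vil1 stayed called lower with TMM or DESeq2 size factors taken from the listed genes. The 2 listed of 6 pancreatic markers also went opposite ways (16.7% each). Cela1 rose 1.97-fold, and Cela2a had 5 and 195 reads in WT and 4 and 1 in Lats1/2iΔLgr5, a difference carried by WT 2. No smooth muscle (6) or leukocyte (7) marker was listed. The part of these cells in the levels of Scd2, Fads2 and Elovl5 was not tested.

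Normalized counts of the deleted gene Lats1 were 2152 and 1974 in WT, and 942.5 and 1129 in Lats1/2iΔLgr5, in the direction of the labels. The log2 fold change of Lats1 was -0.99, or -0.30 under total-count scaling, where edgeR did not call it (adjusted p = 0.291). With TMM or DESeq2 size factors taken from the listed genes it was -0.63 and -0.59, and Lats1 stayed called lower. Lats2 has no values here. Listed genes held 13413629 to 17689207 reads per library.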

How the data were processed

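Poly(A) RNA was sequenced in pairs of 75-base reads from stranded libraries, per the labels' protocols. The submitters' processing notes name GRCm38, TopHat2 2.1.1, HTSeq and DESeq2; no source used here gives their settings or says whether HTSeq counted by strand. The deposited table holds raw counts for each gene. Per the file headers, further columns hold the authors' base mean (a signal over normalized counts), log2 fold change, Wald score, p-value and adjusted p-value. The largest deposited adjusted p-value is 0.05, so genes beyond it were not analysed here. Rose and fell are used of genes in that table.

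Size factors recovered from the deposited base means (0.792, 0.907, 1.10 and 1.28 for WT 1, WT 2, Lats1/2iΔLgr5 1 and 2) rebuilt them within 0.0119%. edgeR 4.0.16's quasi-likelihood fit used these factors, genotype alone, filterByExpr, a prior count of 2 and Benjamini-Hochberg adjustment over the listed genes, with DESeq2 1.42.0 as an alternative; it was tested on simulated data. The SE is the log2 fold change divided by the root of the F statistic. Genes selected for significance do not give an independent test, so edgeR calls stand only beside the authors' calls. The number of genes tested was inferred from the ratio of deposited adjusted to raw p-values.

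Symbols, coordinates, exon lengths and transcripts are from GENCODE M21 (2698 of 2701 IDs matched). The 3 genes, the lists and the alternatives were chosen with earlier results of these data known. Named are the 3 genes, every other listed gene of the 8 lists, Lats1, listed neighbours within 250 kb, and the 5 nearest profiles per gene at a base mean of at least 100; markers come from 9 lists. Some genes of these lists are not reported here and were left out of the list counts. Protein sequences were not used here.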

Additional observations from a re-analysis of the deposited data

How the results depend on the processing

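All 4 libraries and the authors' size factors gave log2 fold changes of 2.14 for Scd2, 2.56 for Fads2 and 1.26 for Elovl5, and all 3 stayed positive under every alternative run. Scaling from the listed genes shifted every gene upward, by a median log2 value of 0.36 with edgeR's TMM, 0.41 with DESeq2 size factors and 0.69 with total counts. Only genes the authors called different enter these 3 scalings, so they are no neutral reference. For that reason the authors' size factors were the main setting. With these the values were 2.50, 2.54 and 2.83 for Scd2, 2.92, 2.96 and 3.24 for Fads2, and 1.62, 1.67 and 1.95 for Elovl5. The median of the other pathway genes went from -0.58 to -0.21, -0.17 and 0.12. Listed genes called higher by edgeR stayed at 1157 (1158 with total counts), and those called lower went from 1541 to 494, 432 and 173, so the higher share went from 42.9% to 70.1%, 72.8% and 87.0%. Pathway genes called lower went from 21 to 10, 10 and 3. Under total counts Fads3 (0.065), Degs2 (0.12), Cyb5a (0.20), Cyb5r4 (0.16), Slc25a1 (0.052), Scap (0.026), Mboat2 (0.017), Agpat1 (0.023), Chuk (0.13), Fbxo9 (0.18), Krt8 (0.097) and Cdh1 (0.175) changed sign.

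Without 1 library in turn, Scd2 ranged from 2.06 to 2.23 (2.23 without WT replicate 1, the step of Scd2 beyond its replicate spread), Fads2 from 2.24 to 2.82, Elovl5 from 1.21 to 1.31 and the pathway median from -0.61 to -0.48. Calls ranged from 4 to 1038 higher and 1 to 1416 lower over all listed genes, and from 0 to 16 higher and 0 to 21 lower over pathway genes. Lowest in each case was the fit without Lats1/2iΔLgr5 replicate 2, and without Lats1/2iΔLgr5 replicate 1 the calls were 627 and 876; a lone library was assumed to vary like the other group. The DESeq2 test, no filter and a lower prior count kept every one of these results on its side of the threshold.

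Replicate numbers share only a label (correlation of deviations between groups -0.162). With the replicate number as a block, 1084 genes were called higher and 1451 lower, and Scd2, Fads2 and Elovl5 were at 2.14, 2.54 and 1.26. With the pairing crossed, an alternative chosen after seeing the data, 1142 and 1518 were called, with 12 and 20 of the pathway genes in place of 16 and 21, the 4 lost higher calls being sterol synthesis genes. The counts of pathway genes called were also added after seeing the data.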
